A study of Mus musculus with 6 samples.

Results

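The Schlafen genes and the Ifi200 genes are multigene families that interferon induces in mouse cells. To find out how they differ between a plant alkaloid and a standard colitis drug, their transcripts were examined in colorectal tissue of C57BL/6 mice. Every mouse had drunk dextran sulfate sodium (DSS), which damages the colonic epithelium and so causes colitis, for 7 days. Colitis mice received either berberine (BBR) or sulfasalazine (SASP), an aminosalicylate prodrug, by gavage for 6 days, with 3 samples per group. The labels give the same strain for both groups and no genotype change, and the study's methods describe adult males. Normal mice and colitis mice without a drug were not analysed here, so each difference is between the groups given BBR or SASP. How far the severity of colitis differed between these groups was not tested. The labels place every sample in the colorectum, but the text of the study speaks of rectal samples for BBR and colon samples for SASP, so drug and gut region cannot be told apart. The numbers in the sample titles are not shared between the groups, so mice 1 to 3, counted within a group, are only names. The p-values set the difference between the groups against the spread between samples within a group.

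The genes were taken by symbol from the deposited table of 18268 genes. All 8 were listed, namely Slfn1, Slfn2, Slfn4, Slfn5, Slfn8 and Slfn9 of the Schlafen family and Ifi203 and Ifi204 of the Ifi200 family. The table also held 13 relatives, which are described after them. Values are FPKM, read fragments relative to transcript length and to all mapped reads of the library, so levels can be set side by side between genes. Tests used limma on log2(FPKM + 1), and a gene entered if 3 or more of the 6 samples reached 1 FPKM, which left 12072 genes. A gene is called lower or higher when its p, adjusted by the Benjamini-Hochberg method over all tested genes, is under 0.05.

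Schlafen proteins share a domain that binds nucleic acids. The short ones, such as Slfn1 and Slfn2, were first described as regulators of T cell growth and quiescence, while the long ones, such as Slfn5, Slfn8 and Slfn9, carry a helicase-like part in addition. Slfn4 is known from myeloid cells, where it is induced by interferon and by bacterial products. Ifi200 proteins, also called PYHIN proteins, pair a pyrin domain with a DNA-binding HIN domain. Ifi204 is a sensor of cytosolic DNA, Ifi203 is a nuclear relative, and Aim2 is the family member that forms an inflammasome. Interferon acts on such genes through the interferon-stimulated response element (ISRE) and the gamma-activated site (GAS) in their promoters.

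Promoter sequences are shown first, because shared elements group the members in a way that the expression values did not enter. A window before the transcription start was given by RefSeq (build GRCm38.p6) for 7 of the 8 members, with none for Ifi204. The 250 bases before the start were searched on both strands for an ISRE core, GAAA, any 2 bases and GAAA again, and for a GAS, TTC, any 3 bases and GAA. The ISRE core was found in 4 of 7 members (57.1%) and in 3.28% of the 14402 genes of the table with a window. The GAS was found in 0 of 7 members and in 7.30% of all. A match describes the letters only, and no match says nothing about a factor. In Slfn8 and Slfn9, neighbouring genes, the core lay 48 and 45 bases before the start (the upstream start of Slfn8), and the 120 bases before those starts matched at 105 of 117 aligned positions (89.7%). These are shown on the gene's strand with the ISRE core in capitals.
Slfn8, chr11:83020811-83020930, minus strand: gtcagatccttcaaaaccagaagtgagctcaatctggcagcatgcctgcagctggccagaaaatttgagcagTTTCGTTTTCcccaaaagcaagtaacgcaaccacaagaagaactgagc
Slfn9, chr11:82991831-82991950, minus strand: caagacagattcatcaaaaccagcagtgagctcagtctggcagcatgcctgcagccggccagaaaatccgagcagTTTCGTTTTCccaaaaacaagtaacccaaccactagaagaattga

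In Slfn5 the core lay 155 bases before the start and was followed by a run of adenines. In Ifi203 it lay 35 bases before the start of 1 of its 2 windows, in a context that other Ifi200 genes shared. Of the 19 family genes of the table with a window, 12 held the core (63.2%). The 30 bases around the core are shown for Slfn5, for Ifi203 and, to show how alike the family is, for its relatives Ifi205 and Ifi207.
Slfn5, chr11:82951937-82951966, plus strand: ccttcaaagtGAAAAAGAAAaaaaaaaaag
Ifi203, chr1:173942508-173942537, minus strand: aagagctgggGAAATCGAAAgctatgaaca
Ifi205, chr1:174031870-174031899, minus strand: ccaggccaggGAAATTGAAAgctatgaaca
Ifi207, chr1:173741831-173741860, minus strand: cctagccaggGAAATCGAAAattaagaaca

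Slfn1, Slfn2 and Slfn4 held neither element in these windows. Their longest common run was ACTTCCTGGAG, 11 bases, ending 45 to 64 bases before the start. It was present in 14 of 14402 windowed genes (0.0972%) and, among family genes, in these 3 only. It was searched for after the windows had been read, so it is a description. The 120 bases before each start are shown with the run in capitals.
Slfn1, chr11:83116700-83116819, plus strand: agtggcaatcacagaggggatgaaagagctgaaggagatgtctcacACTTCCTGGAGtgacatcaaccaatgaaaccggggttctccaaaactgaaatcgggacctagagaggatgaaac
Slfn2, chr11:83064992-83065111, plus strand: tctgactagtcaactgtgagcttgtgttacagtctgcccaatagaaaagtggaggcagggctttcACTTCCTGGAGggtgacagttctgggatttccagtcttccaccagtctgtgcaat
Slfn4, chr11:83175066-83175185, plus strand: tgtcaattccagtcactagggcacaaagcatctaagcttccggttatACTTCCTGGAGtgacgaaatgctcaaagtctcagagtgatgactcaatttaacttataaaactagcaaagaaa

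The libraries were of similar depth, at roughly 17400000 to 19300000 reads per sample, estimated from the smallest values of the table. Markers of colonic epithelium marked the tissue, as 11 of 11 passed the filter with a summed level of 7640 to 10300 FPKM. Summed smooth muscle markers were at 2870 to 6760 FPKM in BBR and 753 to 2310 FPKM in SASP mice. BBR mouse 3 stood apart from the other BBR mice, with a correlation across genes of 0.953 and 0.949 against 0.987 between those, and the calls of the members are given with and without it. In bulk tissue, fewer cells of a type and less RNA per cell cannot be told apart.

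Of the 8 members, 7 passed the filter and 6 of these were called lower in colitis mice receiving BBR than in those receiving SASP. They were Slfn4, Slfn5, Slfn8, Slfn9, Ifi203 and Ifi204. None was called higher. Over all tested genes 5.04% were called lower and 3.82% higher. The median log2 fold change of the 7 tested members was -1.29, and that of all tested genes was 0.10. In 6 of the 7 tested members all 3 BBR values lay below all 3 SASP values, which held for 16.6% of the genes tested. Slfn8 and Ifi204 passed the filter through the SASP mice alone, and such genes had to differ between the groups to be tested. Of the 80 genes of that kind 67.5% were called lower. Slfn1 lay below the filter and Slfn2 missed the threshold.

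**Figure D1:**
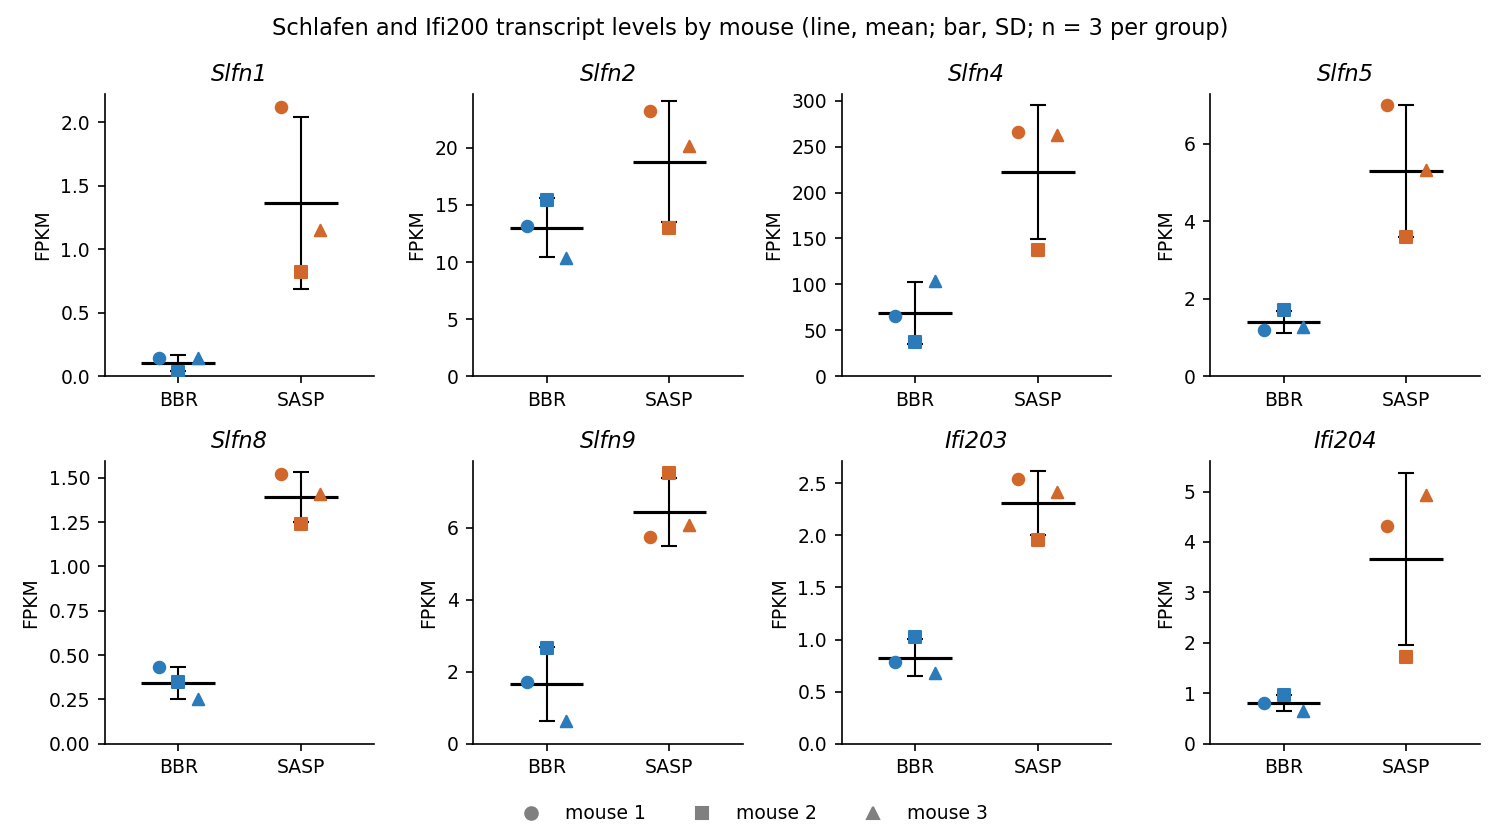
FPKM of the 8 Schlafen and Ifi200 members in each of 3 BBR and 3 SASP mice, with the mean (line) and SD (bar) of each group; each panel has its own axis from 0. The groups part in every panel except that of Slfn2, where SASP mouse 2 (12.96 FPKM) sits below BBR mice 1 and 2.

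Slfn4 (Gene ID 20558) had by far the highest level of the family. It was at 65.36, 37.08 and 104.04 FPKM in BBR mice 1 to 3 and at 265.73, 137.70 and 262.61 FPKM in SASP mice 1 to 3. The groups did not overlap, although BBR mouse 3 and SASP mouse 2 came close to each other. The mean of 222 ± 73.0 FPKM under SASP was 3.23 times that under BBR, 68.8 ± 33.6 FPKM (SD, n = 3 each). The log2 fold change was -1.73 (SE 0.41, limma adjusted p = 0.0466), the largest fall of the members on this scale. Slfn4 made up 64.2% to 88.6% of the summed Schlafen FPKM of a BBR mouse and 83.9% to 88.4% of that of a SASP mouse. By level it ranked between 295 and 538 among the 18268 genes in SASP mice and between 700 and 2231 in BBR mice. In BBR mice 1 and 2 the granulocyte marker S100a8 was listed at 0 FPKM, while summed granulocyte markers were at 234 and 192 FPKM. Which cells held the Slfn4 transcripts was not tested.

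Slfn2 (20556), a short Schlafen gene linked to T cell quiescence, was the other member above 10 FPKM in all mice. It measured 13.14, 15.47 and 10.32 FPKM in BBR mice and 23.26, 12.96 and 20.13 FPKM in SASP mice. The groups overlapped, because SASP mouse 2 lay below BBR mice 1 and 2. The log2 fold change was -0.48, with a 95% confidence interval of -1.04 to 0.08 (SE 0.23, limma adjusted p = 0.204), so both no difference and a fall as large as that of Slfn8 lie within the interval.

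Slfn1 (20555), the other short Schlafen gene among the members, was nearly silent under BBR. It measured 0.14, 0.03 and 0.14 FPKM in BBR mice and 2.12, 0.82 and 1.15 FPKM in SASP mice, which is about 0.958 to 4.45 reads against 28.7 to 72.7 reads per sample. The groups did not overlap. Among the 6188 genes below the filter, 3.46% had all BBR values under all SASP values. Since only 2 samples reached 1 FPKM it was not tested. When all 18260 genes above 0 in any sample were fitted, its log2 fold change was -1.06 (SE 0.19, limma adjusted p = 0.0438), and 2.1% of the genes of that fit were called lower. In that fit 4 of the 8 members were called, namely Slfn1, Slfn5, Slfn8 and Ifi203, while Slfn4, Slfn9 and Ifi204 were not (adjusted p = 0.0785, 0.0542 and 0.0755).

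All 3 long Schlafen genes were called lower. Slfn5 (327978) measured 1.2, 1.72 and 1.28 FPKM in BBR mice and 6.99, 3.59 and 5.33 FPKM in SASP mice. The lowest SASP value was above the highest BBR value by more than the whole range of the BBR mice. The log2 fold change was -1.36 (SE 0.22, limma adjusted p = 0.0199). Slfn5 overlaps an antisense gene, Slfn5os, with which its transcripts shared 7.38% of their 50-base stretches. Whether the libraries kept the strand is not given in the sources used here, so reads of the pair cannot be told apart.

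Slfn9 (237886) measured 1.70, 2.66 and 0.62 FPKM in BBR mice and 5.73, 7.51 and 6.08 FPKM in SASP mice. Its SASP mice differed little and its BBR mice spread widely, with BBR mouse 3 the lowest. The log2 fold change was -1.55 (SE 0.29, limma adjusted p = 0.0279). Slfn8 (276950) measured 0.43, 0.35 and 0.25 FPKM in BBR mice and 1.52, 1.24 and 1.41 FPKM in SASP mice. Each group was tight and the groups lay far apart for so low a gene, with means of 0.343 ± 0.0902 and 1.39 ± 0.141 FPKM (SD, n = 3 each). The log2 fold change was -0.83 (SE 0.13, limma adjusted p = 0.0199), although the SASP mean was 4.05 times the BBR mean. At this level the added 1 FPKM compresses the change, and with 0.01 added in its place the log2 fold change was -2.01.

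Of the Ifi200 members, Ifi204 (15951), the DNA sensor, measured 0.80, 0.96 and 0.65 FPKM in BBR mice and 4.32, 1.71 and 4.94 FPKM in SASP mice. SASP mouse 2 stood below the other SASP mice by more than the distance to the BBR mice. The log2 fold change was -1.29 (SE 0.30, limma adjusted p = 0.0446). Ifi203 (15950) measured 0.78, 1.02 and 0.68 FPKM in BBR mice and 2.54, 1.96 and 2.42 FPKM in SASP mice, with no overlap and little spread. Its log2 fold change was -0.86 (SE 0.15, limma adjusted p = 0.0221).

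**Figure D2:**
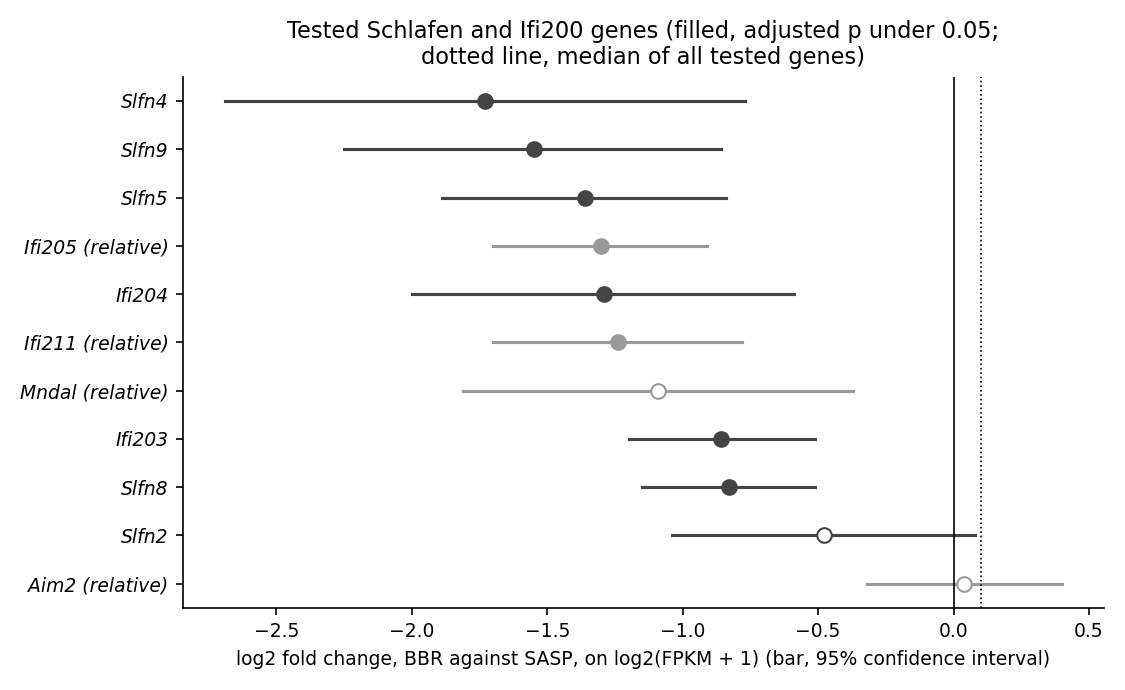
Log2 fold change of BBR against SASP on log2(FPKM + 1) for the 7 tested members (dark) and 4 tested relatives (grey), with 95% confidence intervals; filled points passed the adjusted threshold and the dotted line is the median of all tested genes (0.10). All but Aim2 (0.04) lie below 0, and the intervals of Slfn2 and Aim2 cross it.

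In SASP mice the order of mean levels was Slfn4, Slfn2, Slfn9, Slfn5, Ifi204, Ifi203, Slfn8 and Slfn1. Neighbours in that order from Slfn9 to Ifi203 overlapped in their ranges, as did Slfn8 and Slfn1. In BBR mice the order was Slfn4, Slfn2, Slfn9, Slfn5, Ifi203, Ifi204, Slfn8 and Slfn1, where Slfn9 overlapped Slfn5 and Ifi203 overlapped Ifi204. The families thus kept nearly the same order of levels under both drugs, with Slfn1 last in each.

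Between mice of a group most members, but not all, shared the mouse with the lowest value. SASP mouse 2 had the lowest SASP value of 7 members, and the highest SASP value of Slfn9. BBR mouse 3 had the lowest BBR value of Slfn2, Slfn8, Slfn9, Ifi203 and Ifi204, and the highest of Slfn4. The genes with the most similar profiles differed accordingly, by the root mean square difference of centred log2(FPKM + 1) over the 6 mice. Nearest to Slfn4 were Sectm1a (0.193), Cd177 (0.228), a neutrophil surface gene, and Ifit1bl1 (0.249), where the median over all tested genes was 1.10. Nearest to Slfn9 were Mcm2 (0.1), Chaf1b (0.107) and Mcm7 (0.122), which act in DNA replication and chromatin assembly, with a median over all genes of 0.895. Nearest to Slfn5 was a gene of the other family, Ifi211 (0.088). Plgrkt (0.078) was nearest to Slfn2, Crybg1 (0.052) to Slfn8, Hk3 (0.032) to Ifi203 and Clic5 (0.132) to Ifi204. With 6 mice in groups that part, many genes have like profiles, and this likeness is a description.

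**Figure D3:**
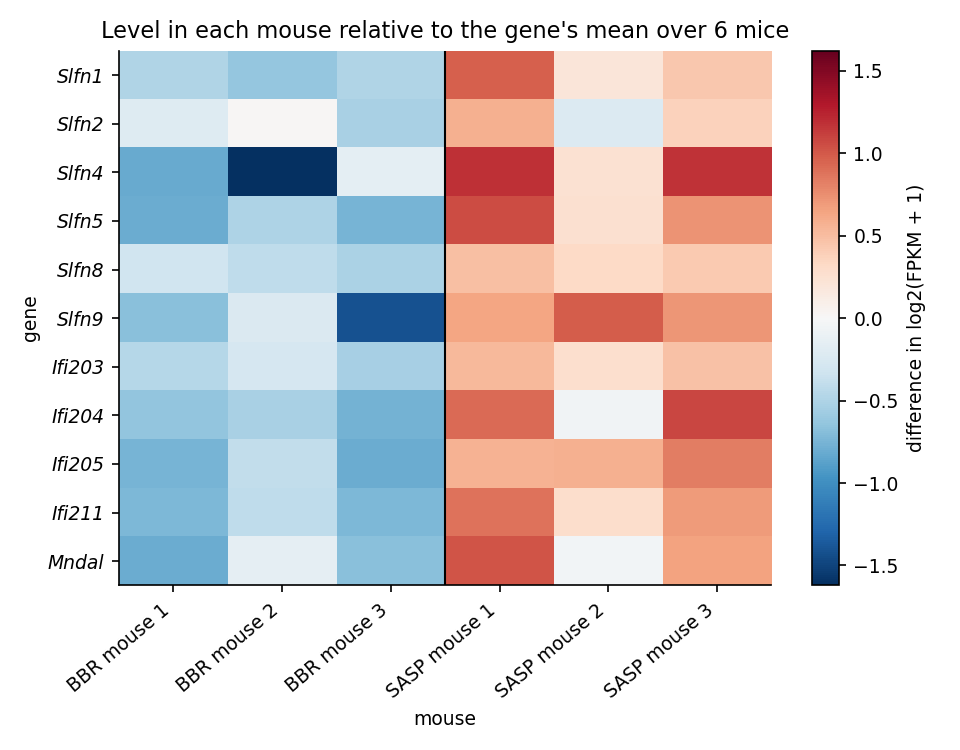
Difference of log2(FPKM + 1) in each mouse from the gene's mean over the 6 mice, for the 8 members and their relatives Ifi205, Ifi211 and Mndal (red above, blue below; the line parts BBR from SASP). SASP mouse 2 is the palest SASP cell of 7 members, and BBR mouse 3 is the darkest cell of Slfn9 and the palest BBR cell of Slfn4.

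The relatives in the table were then examined. Of 10 further Ifi200 genes 4 were tested, 2 were called lower, and the median log2 fold change was -1.16. Ifi205 measured 0.27, 0.62 and 0.22 FPKM in BBR mice and 2.15, 2.17 and 2.78 FPKM in SASP mice, so the log2 fold change was -1.30 (SE 0.17, limma adjusted p = 0.0111). Ifi211 was at 0.99, 1.48 and 0.98 FPKM against 5.07, 3.0 and 4.31 FPKM, a change of -1.24 (SE 0.20, limma adjusted p = 0.0186). Both parted the groups, but Ifi205 also passed the filter through the SASP mice alone and so had to differ to be tested, and 72.8% of the 50-base stretches of Ifi211 occur in other genes, so its value may hold their reads. With the same genes tested, the 2 calls became 1 without SASP mouse 1 and 0 without BBR mouse 1 or SASP mouse 3. Mndal had a log2 fold change of -1.09 and missed the threshold (limma adjusted p = 0.0668), with SASP mouse 2 (2.05 FPKM) close to BBR mouse 2 (1.84 FPKM).

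Aim2, the inflammasome sensor of the same gene cluster, was the exception. It measured 30, 32.98 and 23.78 FPKM in BBR mice and 31.94, 25.64 and 26.27 FPKM in SASP mice. The groups overlapped throughout, with a log2 fold change of 0.04 and a 95% confidence interval of -0.32 to 0.40 (limma adjusted p = 0.865). It was also the Ifi200 gene with the highest FPKM in every mouse. The interval leaves out falls of the size seen in Ifi203, Ifi204, Ifi205 and Ifi211.

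The 6 other Ifi200 genes lay below the filter. In Ifi206, Ifi207 and Ifi209 all BBR values were below all SASP values. Ifi209 was at 0.20, 0.46 and 0.28 FPKM against 2.03, 0.62 and 1.28 FPKM. Ifi207 showed a smaller difference, at 0.43, 0.71 and 0.58 against 0.88, 1.03 and 0.79 FPKM, and its window holds the same ISRE core as that of Ifi203. Ifi208, Ifi213 and Ifi214 overlapped, and Ifi208 did not exceed 0.18 FPKM in any mouse. The windows of Ifi206, Ifi208, Ifi213 and Ifi214 hold that core too, while those of Ifi209 and Aim2 hold no ISRE core. The 3 further Schlafen genes, Slfn3, Slfn10-ps and Slfnl1, were under 1 FPKM in all mice and overlapped. Slfn3, the neighbour of Slfn4, had its higher mean under BBR, with 0.17, 0.40 and 0.66 FPKM in BBR mice against 0.17, 0.11 and 0.27 FPKM under SASP. With no filter its log2 fold change was 0.24 (SE 0.13, limma adjusted p = 0.284).

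To set the clusters beside unrelated genes, genes flanking each were read. Nle1, a ribosome assembly gene beside the Schlafen cluster, was lower under BBR, with a log2 fold change of -0.60 (limma adjusted p = 0.0399). Ap2b1, an adaptor subunit gene near the same cluster, had a log2 fold change of -0.05 (limma adjusted p = 0.761). Beside the Ifi200 cluster, Ackr1, Cadm3 and Mptx1 had log2 fold changes of 0.09, 0.62 and 0.94 (limma adjusted p = 0.790, 0.165 and 0.267).

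**Figure D4:**
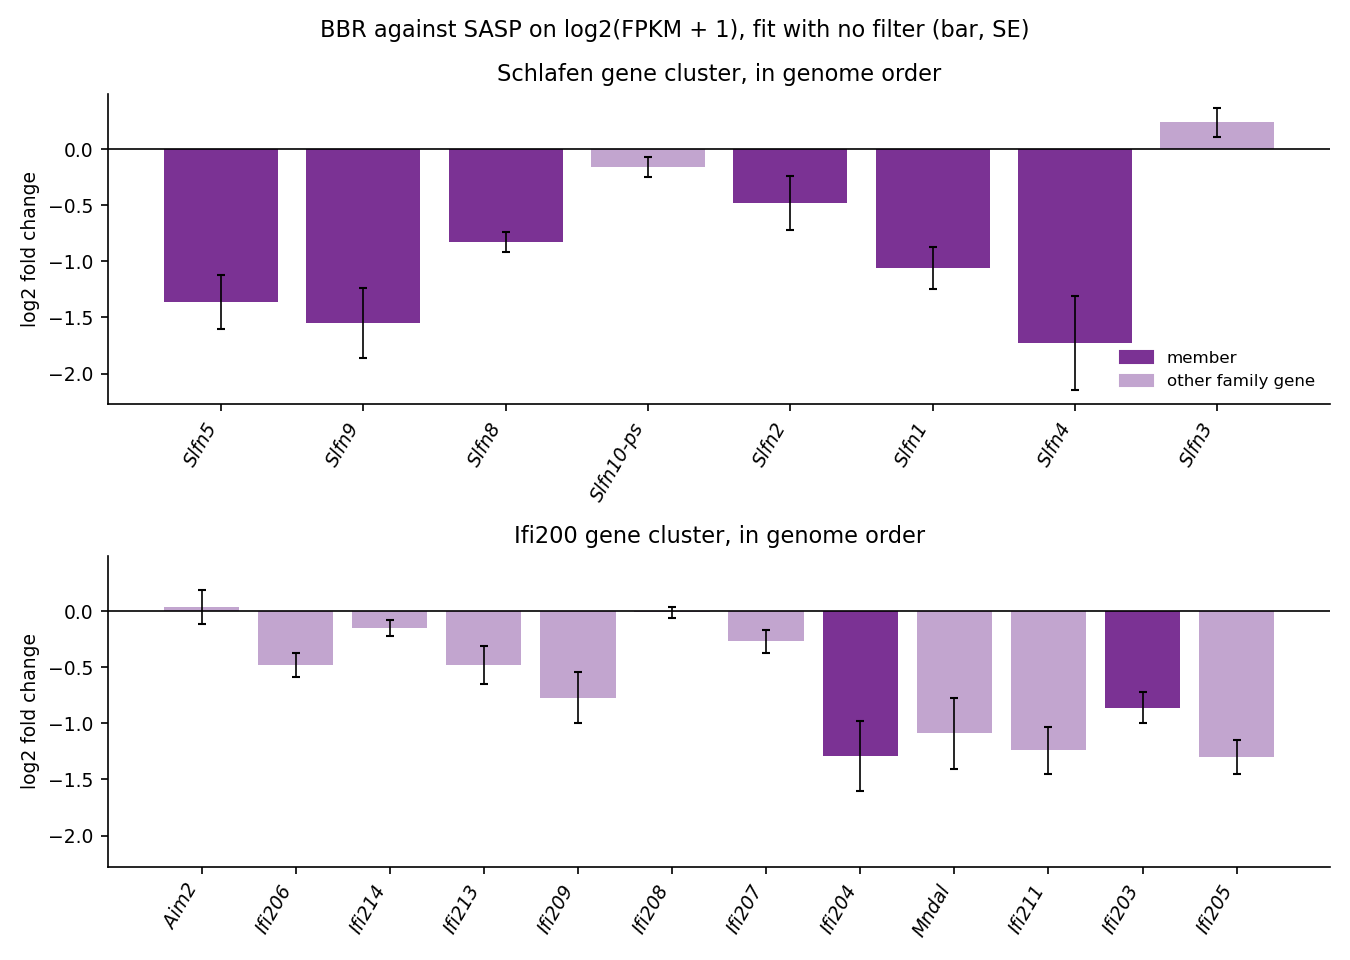
Log2 fold change (bar) and SE of BBR against SASP with no filter, for the genes of the Schlafen cluster (top) and the Ifi200 cluster (bottom), in genome order and not to distance. Members are dark and relatives pale; Slfn3 (0.24) stands above 0 beside Slfn4 (-1.73), and Aim2 (0.04) opens the Ifi200 cluster.

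Genes on which interferon acts elsewhere showed the same side. Of 35 tested interferon-stimulated genes of other families, 32 were called lower and 0 higher, with a median log2 fold change of -2.37. By p the first were Igtp (-5.65), Irgm1 (-3.93), both interferon-inducible GTPases, and the chemokine gene Cxcl10 (-3.65), with limma adjusted p of 0.000214, 0.000694 and 0.000723. Leaving out 1 mouse, with the same genes tested, lowered the 32 to 19 without BBR mouse 1, to 18 without SASP mouse 1 and to 16 without SASP mouse 3. All 6 called members had log2 fold changes smaller in size than that list's median. Among 15 tested genes of interferons, their receptors and their signalling, 5 were called lower and 0 higher by limma, with a median of -0.07. The number called higher was 5 without BBR mouse 3, 1 with quantile normalization and 2 at an unadjusted p of 0.05. Irf8 and Stat2, transcription factor genes of that list, were lower by log2 fold changes of -2.21 and -1.83 (limma adjusted p = 0.00171 and 0.00187). The summed level of the interferon-stimulated list was 1860 FPKM in SASP mouse 2 against 3570 and 3660 FPKM in the other SASP mice, so that mouse was lowest here as in most members.

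Because these genes are also expressed in immune cells, marker lists were read beside them. Summed pan-leukocyte markers were at 27.2, 38.8 and 23.0 FPKM in BBR and at 83.4, 37.5 and 58.7 FPKM in SASP mice, with 0 of 7 called and a median of -0.81. All 7 had a log2 fold change below 0, and 3 had all BBR values below all SASP values, against 16.6% of the genes tested. With the same genes tested, 3 were called lower without SASP mouse 2, and 0 without any other single mouse. Summed macrophage and monocyte markers were at 143 to 196 FPKM against 261 to 286 FPKM without overlap, with 2 of 11 called lower, Cd14 (-1.85) and Fcgr1 (-0.73), and a median of -0.18. Mrc1 of that list had all BBR values above all SASP values (0.42, limma adjusted p = 0.102), and 8 of the 11 had a log2 fold change below 0. Granulocyte markers overlapped at 192 to 567 against 357 to 536 FPKM, with 1 of 5 called lower, S100a8, which was listed at 0 in BBR mice 1 and 2. Without BBR mouse 3, 4 granulocyte markers were called lower, and without any other single mouse 0 were. B cell markers were at 1.2 to 2.83 against 5.38 to 34.4 FPKM, with 1 of 2 called lower, Cd79b, which was not called with no filter (limma adjusted p = 0.0811). Cd79b and Fcgr1 passed the filter through the SASP mice alone. T cell markers were at 6.77 to 7.82 against 4.62 to 8.98 FPKM with 0 of 3 called, and NK cell markers at 2.77 to 5.71 against 3.54 to 9.95 FPKM with 0 of 2 called. Fibroblast and endothelium markers were on the other side, at 142 to 223 FPKM in BBR against 66.6 to 119 FPKM in SASP mice, with 2 of 8 called higher, Lum (1.32) and Col1a1 (0.95). Without BBR mouse 3, 5 of them were called higher, and 0 without BBR mouse 1, BBR mouse 2, SASP mouse 1 or SASP mouse 3. Of the epithelial markers Krt18 and Cdx2 were called higher and Vil1 lower. No marker of these lists was at 0 in all mice.

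Values were also divided by the summed pan-leukocyte FPKM of the same mouse. On that scale 5 of the 7 tested members had all BBR values below all SASP values, which held for 1.34% of the genes tested. The same was seen in Slfn1, which was not tested. Of the 5, Slfn8 and Ifi204 had passed the filter through the SASP mice alone, so they had to differ in FPKM to be counted. Slfn5 was at 0.0441, 0.0444 and 0.0556 per unit in BBR and at 0.0838, 0.0958 and 0.0908 in SASP mice. The gap was narrow in Slfn9, with a highest BBR value of 0.0686 and a lowest SASP value of 0.0687, and in Ifi203, with 0.0295 and 0.0304. Slfn4 then overlapped, at 2.40, 0.957 and 4.52 against 3.19, 3.67 and 4.48. Slfn2 turned round, with BBR at 0.483, 0.399 and 0.448 above SASP at 0.279, 0.346 and 0.343. The divisor was at 23.0 to 38.8 FPKM in BBR and at 37.5 to 83.4 FPKM in SASP mice. The division itself therefore tends to move genes to the BBR side. The share of all genes with BBR above SASP on this scale was not counted, so this is no result about Slfn2. This scale was chosen after the data had been seen. The part of other cell types, such as smooth muscle, fibroblasts and endothelium, in the differences was not tested.

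The log2 fold changes of the members were below 0 in every fit that was run, while the number of calls changed with the mouse left out. Each fit without a mouse has fewer replicates and so less power. Without SASP mouse 3, for example, Slfn8 was at -0.82 (limma adjusted p = 0.0971), against -0.83 with all mice. How far the lost calls came from the smaller groups was not tested. In the 6 tested members whose groups did not overlap, leaving out a mouse could not change the sign. With the same 12072 genes, 6 members were called without BBR mouse 3, 4 without SASP mouse 2, 3 without BBR mouse 2 and 0 without BBR mouse 1, SASP mouse 1 or SASP mouse 3. The calls of the whole table moved likewise, with 1369 genes lower without BBR mouse 3 and 82 without SASP mouse 3, against 608. Over these fits the log2 fold change of Slfn4 ranged from -2.09 to -1.36 and that of Slfn5 from -1.57 to -1.17. Slfn8 ranged from -0.88 to -0.78, Slfn9 from -1.82 to -1.24, Ifi203 from -0.93 to -0.80 and Ifi204 from -1.64 to -1.08. The limma adjusted p ranged from 0.0097 to 0.166 for Slfn4, from 0.00615 to 0.102 for Slfn9 and from 0.00914 to 0.162 for Ifi204, and those of the other 3 called members stayed within these bounds.

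**Figure D5:**
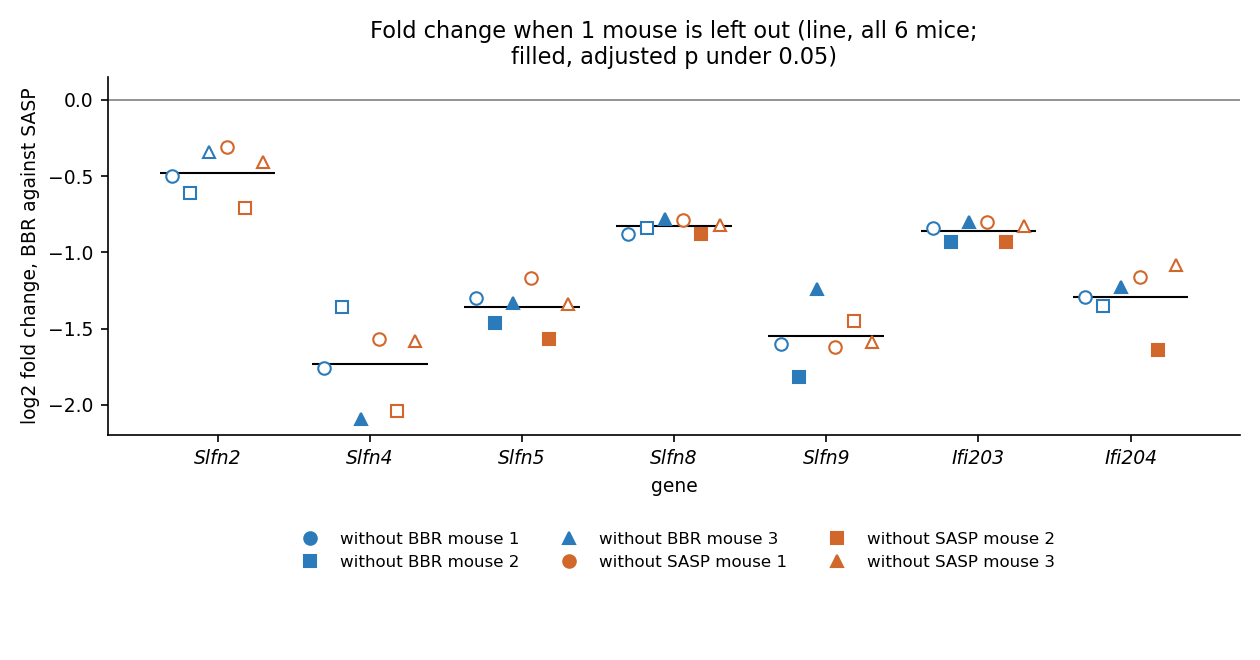
Log2 fold change of BBR against SASP for the 7 tested members when each mouse is left out in turn, with the same genes tested; lines are the values of all 6 mice and filled points passed the adjusted threshold. Every point lies below 0, and all points without BBR mouse 1, SASP mouse 1 or SASP mouse 3 are open.

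Close paralogs limit the split of reads between members, since the estimate divides a read that fits several genes. Of the 50-base stretches in the transcripts of each gene, the share found in another gene was 0.606% for Slfn1, 4.27% for Slfn2, 11.3% for Slfn4 and 11.1% for Slfn5. It was 14.6% for Slfn8 and 11.9% for Slfn9, mostly with the pseudogene Slfn10-ps. Ifi203 had 12.4%, mostly with Ifi203-ps, and Ifi204 20.0%, mostly with Ifi211. In each member most stretches were its own.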

How the data were processed

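RNA was sequenced from colorectal tissue of 3 BBR and 3 SASP colitis mice, grouped by the treatment label. The deposited FPKM values, rounded to 2 decimals, were calculated by the authors with RSEM 1.2.12 per gene and sample after alignment with Bowtie2 2.2.5. The submitters' processing notes name build mm9, and the annotation is not given in the sources used here. FPKM are not counts, so limma 3.58.1 (R 4.3.3) with a mean-variance trend was fitted on log2(FPKM + 1) over all tested genes, two-sided. A log2 fold change on this scale understates changes of low genes. An exact permutation test of 3 against 3 cannot give p below 0.10 and was not used. The fit was tested on simulated data.

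The members and lists were chosen with earlier results of these data known. The text names all members and relatives, cluster neighbours, nearest profiles and up to 3 genes per list by smallest p, of which some flanking and signalling genes are not reported here. Promoters are RefSeq windows (GRCm38.p6), and 50-base stretches come from GENCODE transcripts of the same build. The 50 bases are the read length in the study's methods, which describe BGISEQ sequencing after rRNA depletion for the BBR experiment, whereas the labels name an Illumina TruSeq kit for all samples. If the reads were longer, the shares of shared stretches would tend to be lower. Protein sequences were not used here. Approximate depth assumed that the typical value of a short gene above 0 in a single sample is 1 read. Alternatives were other scaling, pseudocounts, filters, variance models and thresholds, and each mouse left out.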

Additional observations from a re-analysis of the deposited data

How the results depend on the processing

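The 129 member log2 fold changes under the alternatives were all below 0. For members whose groups did not overlap, only other scaling could have changed the sign. The unadjusted threshold repeats the values of the main fit. Genes called lower (608) became 994 with quantile normalization, 1082 with median-ratio scaling, 383 with no filter and 1613 with the threshold the study used, p up to 0.05 without adjustment. Genes called higher (461) became 743 with quantile normalization, 225 with no filter and 2224 at the unadjusted threshold. The cause was not tested. With 1 mouse left out they ranged from 45 to 1369 lower and from 6 to 2682 higher. Members called lower (6) ranged from 0 to 6 with 1 mouse left out, and 1 was called with a mean of at least 5 FPKM, where only Slfn2 and Slfn4 were tested. Slfn4 also missed the threshold with a pseudocount of 0.01 (adjusted p = 0.0502) and with no variance trend (0.051). The members' median (-1.29) was -1.77 with a pseudocount of 0.1 and -1.88 with 0.01, and ranged from -1.45 to -1.08 with 1 mouse left out. Leaving out mice while keeping the tested genes, and the division by leukocyte markers, were chosen after seeing the data. Some list medians near 0 changed sign. The median of interferon and signalling genes was 0.02 with quantile normalization and ranged from -0.11 to 0.05 with 1 mouse left out, and that of epithelial markers -0.01 with median-ratio scaling. The median of other Ifi200 genes was 0.04 with a mean of at least 5 FPKM, which left Aim2 alone. No paired analysis was possible because the groups share no replicate numbers in the labels. Depth limits Slfn1 most, which rests on a few reads per BBR mouse.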
